A study of Homo sapiens with 10 samples.

Results

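The mRNAs of 8 VEGF ligands and receptors were followed in BEAS2B cells, a human bronchial epithelial cell line, after transfection with synthetic oligonucleotides of 3 miRNAs. The members were the ligands VEGFA, VEGFB, VEGFC and PGF, the receptor tyrosine kinases FLT1 and KDR, and the co-receptors NRP1 and NRP2. They were taken by symbol from count tables of 52402 gene symbols, and none of the 8 symbols was listed on more than 1 row. The 5 groups, of 2 libraries each, were a scrambled control (miRcontrol), a miR-3124-5p mimic (miR3124_mimic), a miR-200b-3p mimic (miR200b_mimic), a miR-92b inhibitor (miR92b_inhibitor), and all 3 oligonucleotides together (mixed). All cells carried the wild-type genotype label and all received Lipofectamine 2000. Per the study's methods RNA was taken 48 h after transfection, and each single oligonucleotide was at 50 nM. The share of each oligonucleotide in the mixture was not given in the sources used here. The inhibitor was named without an arm, and the study's miRNA panel held miR-92b-5p. The libraries held between 13587666 and 18503890 counts. Whether the 2 libraries of a group came from separate transfections was not stated. The p-values therefore rest on a spread between libraries, which may leave out that between transfections. That spread was estimated over the 5 groups together and moderated with the values of other genes, giving 45.1 degrees of freedom for each member tested. It was thus not the spread of 2 libraries of 1 gene alone.

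VEGF ligands are secreted dimers that bind receptor tyrosine kinases on the surface of endothelial cells and drive the growth, survival and permeability of blood and lymphatic vessels. VEGFA binds FLT1 (VEGFR1) and KDR (VEGFR2), PGF and VEGFB bind FLT1, and VEGFC binds FLT4 (VEGFR3) and KDR. The neuropilins NRP1 and NRP2 hold VEGF ligands beside these receptors and also bind class 3 semaphorins, which guide axons and vessels. Airway epithelium is known as a source of VEGFA for the vessels beneath it. A miRNA recognizes mRNAs mainly through its seed, the bases 2 to 8 from its 5′ end, which pair with matching words in a 3′UTR.

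The mature miRNAs that the oligonucleotides were named for are shown because their seeds set the words searched for in the 3′UTRs of the members. The seeds are in capitals, and the sequences are those of RefSeq on GRCh38.p14, where all lie on the plus strand of chromosome 1, at chr1:248826383-248826403 for miR-3124-5p, chr1:1167160-1167181 for miR-200b-3p, chr1:155195196-155195217 for miR-92b-5p and chr1:155195237-155195258 for miR-92b-3p. Both arms of miR-92b are given.
miR-3124-5p: uUCGCGGGcgaaggcaaaguc
miR-200b-3p: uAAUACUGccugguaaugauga
miR-92b-5p: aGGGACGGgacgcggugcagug
miR-92b-3p: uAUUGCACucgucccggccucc
No seed was shared between them.

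The words complementary to these seeds were CCCGCGA for miR-3124-5p, CAGTATT for miR-200b-3p, CCGTCCC for miR-92b-5p and GTGCAAT for miR-92b-3p. They were searched for on the mRNA strand of the annotated 3′UTR of the longest coding transcript of each gene (GENCODE basic annotation on GRCh38, overlapping matches included, the other strand not searched). The miR-200b-3p word was in the 3′UTR of 4 of the 8 members, VEGFA, FLT1, KDR and NRP2, and in that of 19.4% of 12247 tested genes with a 3′UTR. Of the 6 members that were tested, described below, 2 held it (VEGFA and NRP2). The median 3′UTR length was 1803.5 bases over the 8 members and 1335 bases over those genes. The sites are shown because VEGFA and NRP2 held the word while NRP1, described below, did not. The word is in capitals, with a final A in capitals where the match ran to 8 bases.
VEGFA, chr6:43785846-43785867, plus strand: gtagggttttttttCAGTATTc
FLT1, chr13:28303092-28303113, minus strand: aaactagcttttgcCAGTATTA
KDR, chr4:55078903-55078924, minus strand: accccgcaacccatCAGTATTt
KDR, chr4:55078553-55078574, minus strand: ttcacattttgtatCAGTATTA
NRP2, chr2:205797739-205797760, plus strand: ggaaaccccactgcCAGTATTg
The word was in 3 of the 24 annotated coding transcripts of VEGFA, 1 of 9 of FLT1, 2 of 2 of KDR and 1 of 6 of NRP2. NRP1, VEGFB, VEGFC and PGF did not hold it in any coding transcript. Only words that match all of bases 2 to 8 were searched for. Seed matches that leave out part of these bases were not, so lacking the word is not lacking every seed match. No member held the word of miR-3124-5p, of miR-92b-5p or of miR-92b-3p, which were in 0.621%, 4.14% and 13.0% of the same genes.

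Levels are given as normalized CPM, the usual depth-scaled unit of RNA-seq counts, and a difference was called where the Benjamini-Hochberg adjusted p of edgeR's quasi-likelihood test over 14884 genes was under 0.05. Of the 8 members 6 passed the filter on low counts and were tested, and FLT1 and KDR did not pass it. In bulk RNA, fewer cells of a kind and less RNA per cell cannot be told apart. Per kilobase of annotated exon, the 6 tested members in miRcontrol ran from 29.5 ± 1.26 CPM per kb for VEGFA through 27.3 ± 2.07 for VEGFB, 25.3 ± 0.208 for NRP1, 19.1 ± 0.897 for VEGFC and 5.08 ± 0.497 for PGF to 0.855 ± 0.0511 for NRP2 (SD, n = 2). The libraries of VEGFA and VEGFB, neighbours in this order, overlapped, and VEGFB and NRP1 differed by less than the SD of VEGFB. With the length of the longest transcript in place of all exons, NRP1 came first in miRcontrol at 46.6 CPM per kb, so its place depended on the length used.

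**Figure D1:**
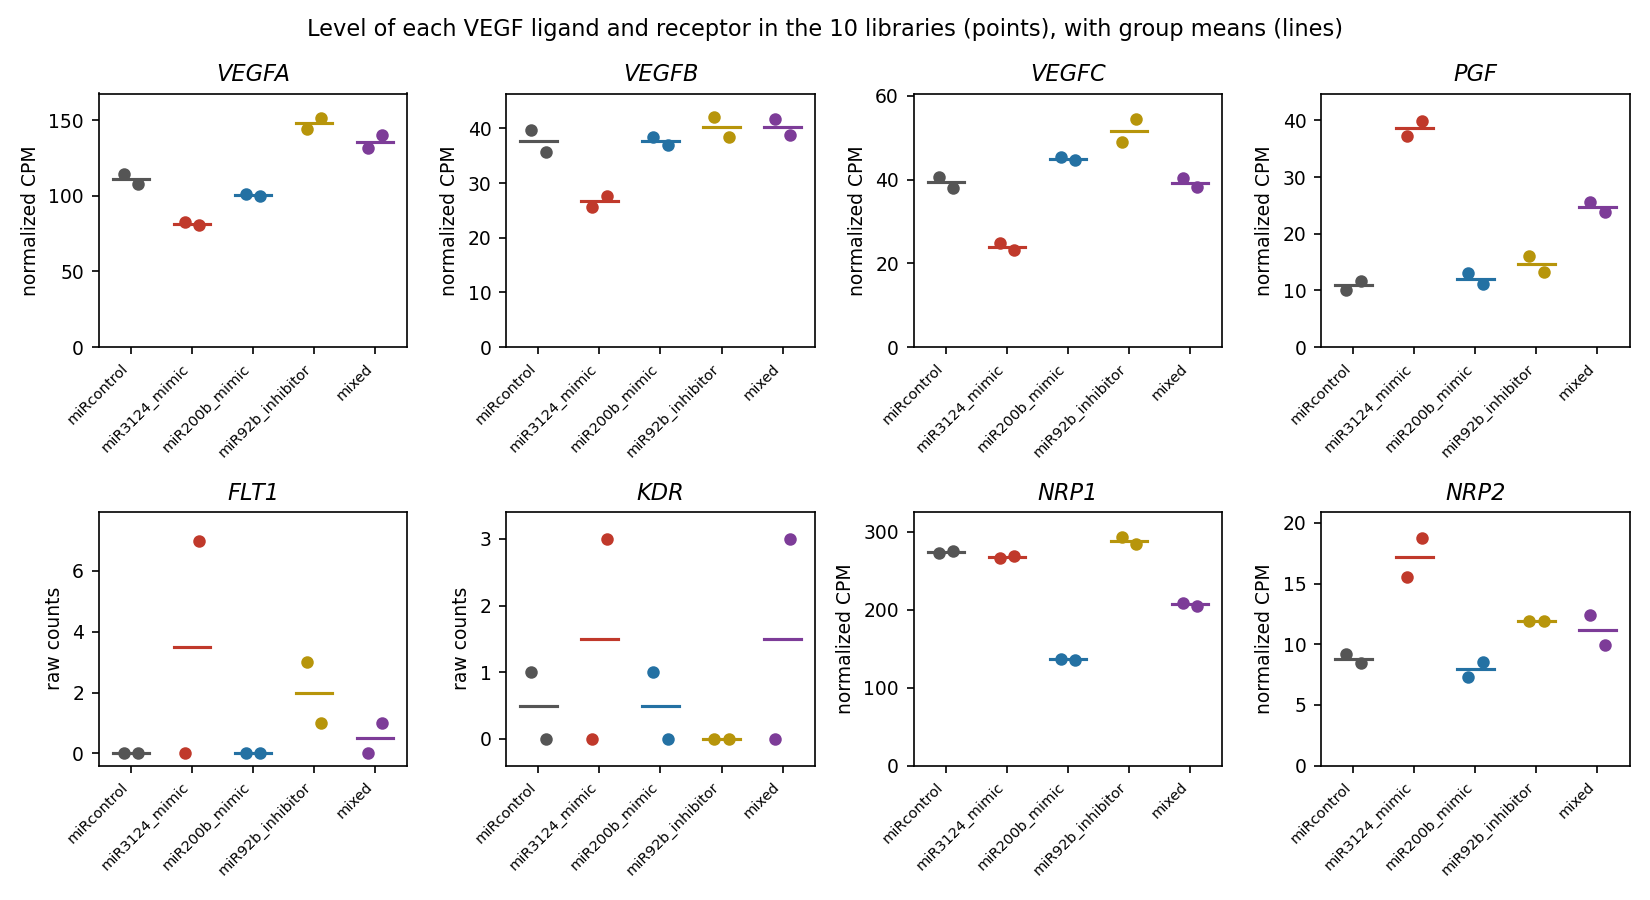
Level of each member in the 10 libraries, with normalized CPM on the y axis for the 6 tested members and raw counts for FLT1 and KDR. Points are libraries and lines are group means. PGF stood highest in miR3124_mimic, NRP1 lowest in miR200b_mimic, and FLT1 and KDR had at most 7 counts in any library.

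FLT1, the receptor of VEGFA, VEGFB and PGF, was listed at 0 counts in both miRcontrol and both miR200b_mimic libraries. The miR3124_mimic libraries had 0 and 7 counts, the miR92b_inhibitor libraries 3 and 1, and the mixed ones 0 and 1. KDR, the main signalling receptor of VEGFA, had 1 and 0 counts in both the miRcontrol and the miR200b_mimic pair of libraries. Its counts were 0 and 3 with miR3124_mimic, 0 and 0 with miR92b_inhibitor and 0 and 3 with mixed. At this depth a count of 0 allows up to 3 counts, or 0.172 and 0.179 CPM in the miRcontrol libraries, and both genes were at or near this floor in most libraries. Of the other family members, the ligand VEGFD had 1 count in 1 mixed library and 0 in the other 9. FLT4, the receptor of VEGFC and VEGFD, had 1 and 3 counts in the controls against 11 and 9 after miR3124_mimic, a ratio of 5.30 with an exact 95% counting interval from 1.77 to 21.3. With no filter on low counts, a setting chosen after the counts were seen, edgeR gave FLT4 an adjusted p of 0.0360 in this comparison. The same setting gave FLT1 an unadjusted p of 0.0390 and an adjusted p of 0.134 in miR3124_mimic, where all of its 7 counts were in 1 library, and KDR an adjusted p of 0.744. FLT4 had at most 3 counts in each library of the other 4 groups. Such intervals covered counting error only.

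VEGFA (chr6:43770184-43786487, plus strand) had 115 and 108 CPM in miRcontrol. The level was 82.4 and 80.9 CPM after miR3124_mimic, 101 and 99.9 CPM after miR200b_mimic, 144 and 152 CPM after miR92b_inhibitor and 131 and 140 CPM after mixed. None of the other 4 groups overlapped miRcontrol, with miR3124_mimic and miR200b_mimic below it and miR92b_inhibitor and mixed above it. The log2 fold change against miRcontrol was -0.45 (SE 0.0499, adjusted p = 1.48e-10) in miR3124_mimic, 0.41 (SE 0.0460, adjusted p = 6.89e-10) in miR92b_inhibitor and 0.29 (SE 0.0462, adjusted p = 1.11e-06) in mixed. In miR200b_mimic, whose seed word 3 of 24 VEGFA transcripts hold, it was -0.15 (SE 0.0489, adjusted p = 0.0135). That last call was lost without miRcontrol replicate 1 (-0.10, adjusted p = 0.206) and without miR200b_mimic replicate 2 (-0.14, adjusted p = 0.0815), and by DESeq2 (adjusted p = 0.0501). From highest to lowest the groups were miR92b_inhibitor, mixed, miRcontrol, miR200b_mimic and miR3124_mimic. The difference of -0.12 between mixed and miR92b_inhibitor (adjusted p = 0.0268) was lost without miR92b_inhibitor replicate 2 (-0.08) and without mixed replicate 1 (-0.08), and by DESeq2 (adjusted p = 0.0951). Exons of the antisense gene AL136131.3 cover 188 bases of VEGFA on the other strand, and the strand setting of the counting was not stated.

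VEGFB (chr11:64234538-64238793, plus strand), a ligand of FLT1 linked to fatty acid handling and cell survival, had 39.7 and 35.7 CPM in miRcontrol and 25.6 and 27.7 in miR3124_mimic. The miR200b_mimic libraries had 38.5 and 37.0 CPM, those of miR92b_inhibitor 42.1 and 38.4 CPM and those of mixed 41.7 and 38.9 CPM. The miR3124_mimic libraries lay below all others, and the other 4 groups overlapped or differed by less than the test could call. The log2 fold change in miR3124_mimic was -0.50 (SE 0.0781, adjusted p = 5.07e-07). It was not called in the other 3 groups, with a 95% interval from -0.05 to 0.24 in both miR92b_inhibitor and mixed and from -0.15 to 0.15 in miR200b_mimic. The values of 0.09 in miR92b_inhibitor and 0.09 in mixed were 0.017 and 0.019 without miRcontrol replicate 2 and 0.17 and 0.17 without miRcontrol replicate 1.

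VEGFC (chr4:176683538-176792727, minus strand), the ligand of lymphatic growth, had 40.7 and 38.1 CPM in miRcontrol, 24.8 and 23.1 CPM after miR3124_mimic and 45.4 and 44.6 CPM after miR200b_mimic. It had 48.9 and 54.5 CPM in miR92b_inhibitor and 40.4 and 38.2 in mixed. The miR3124_mimic libraries were the lowest, the miR92b_inhibitor libraries the highest, and mixed overlapped miRcontrol. VEGFC fell in miR3124_mimic by 0.72 on the log2 scale (SE 0.0773, adjusted p = 4.84e-11) and rose in miR92b_inhibitor by 0.39 (SE 0.0673, adjusted p = 6.44e-06). The 95% interval of the change in mixed ran from -0.14 to 0.14. In miR200b_mimic it was 0.19 (adjusted p = 0.0255), a call that was lost without miRcontrol replicate 2 (0.14), miR200b_mimic replicate 1 (0.18) or miR200b_mimic replicate 2 (0.20), and by DESeq2 (adjusted p = 0.111).

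PGF (chr14:74941834-74955784, minus strand), placenta growth factor, had 10.1 and 11.6 CPM in miRcontrol and 37.2 and 39.9 in miR3124_mimic. The level was 13.0 and 11.1 CPM after miR200b_mimic, 16.0 and 13.2 CPM after miR92b_inhibitor and 25.6 and 23.9 CPM after mixed. Both miR3124_mimic libraries and both mixed libraries lay above all the others. PGF was 3.55-fold higher in miR3124_mimic than in miRcontrol (95% interval 3.09 to 4.09, adjusted p = 1.31e-20) and 2.27-fold higher in mixed (1.96 to 2.64, adjusted p = 3.52e-13). By log2 fold change PGF stood at place 251 from the top of the 14884 genes tested in miR3124_mimic. In miR92b_inhibitor PGF was 1.34-fold higher (adjusted p = 0.00327), but not without miRcontrol replicate 1 (log2 0.32, adjusted p = 0.0846), and without miR92b_inhibitor replicate 1 its log2 fold change went from 0.42 to 0.28 (adjusted p = 0.127). In miR200b_mimic the log2 fold change was 0.13 with a 95% interval from -0.11 to 0.38, and the libraries overlapped those of miRcontrol. From highest to lowest the groups were miR3124_mimic, mixed, miR92b_inhibitor, miR200b_mimic and miRcontrol, and the last pair of neighbours did not differ beyond their spread. The difference of -0.29 between miR200b_mimic and miR92b_inhibitor (adjusted p = 0.0361) was lost without miR200b_mimic replicate 2 (-0.16), without miR92b_inhibitor replicate 1 (-0.15), with no filter and by DESeq2.

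NRP1 (chr10:33177492-33336262, minus strand), the co-receptor of VEGFA and of the semaphorin SEMA3A, had 273 and 276 CPM in miRcontrol and 137 and 136 in miR200b_mimic. It had 267 and 269 CPM in miR3124_mimic, 293 and 284 in miR92b_inhibitor and 208 and 205 in mixed. The miR200b_mimic libraries were the lowest, the mixed libraries came next, and the other 3 groups lay close together. The fold in miR200b_mimic was 0.497 of the miRcontrol level (95% interval 0.470 to 0.526, adjusted p = 1.36e-25) and in mixed 0.754 (0.715 to 0.795, adjusted p = 1.45e-12). In miR200b_mimic NRP1 stood at place 534 from the lowest log2 fold change of 14884 genes. NRP1 lacked the miR-200b-3p word in all 9 of its annotated coding transcripts, but seed matches other than this word were not searched for. Whether miR-200b-3p acts on NRP1 directly was not tested. Its log2 fold change was -0.03 in miR3124_mimic (adjusted p = 0.512) and 0.07 in miR92b_inhibitor (adjusted p = 0.121). Exons of the antisense gene AL121748.2 cover 561 bases of NRP1 on the other strand.

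NRP2 (chr2:205681990-205798133, plus strand), the co-receptor of VEGFC and of SEMA3F, had 9.16 and 8.42 CPM in miRcontrol and 15.6 and 18.8 in miR3124_mimic. The miR200b_mimic libraries had 7.33 and 8.51 CPM, the miR92b_inhibitor libraries 11.9 and 11.9 CPM and the mixed libraries 12.4 and 9.90 CPM. The miR3124_mimic libraries were the highest, and miR200b_mimic overlapped miRcontrol. NRP2 was 1.96-fold higher in miR3124_mimic (95% interval 1.65 to 2.34, adjusted p = 5.86e-09) and 1.35-fold higher in miR92b_inhibitor (1.13 to 1.62, adjusted p = 0.00734), the latter not called without miRcontrol replicate 2 (log2 0.38, adjusted p = 0.0803) or by DESeq2 (adjusted p = 0.0504). In mixed the log2 fold change of 0.34 (adjusted p = 0.0332) was lost without miRcontrol replicate 1 (0.40), miRcontrol replicate 2 (0.28) or mixed replicate 1 (0.17), with no filter (0.34, adjusted p = 0.0510) and by DESeq2 (0.34, adjusted p = 0.133). The order of the groups was miR3124_mimic, miR92b_inhibitor, mixed, miRcontrol and miR200b_mimic, in which miR92b_inhibitor and mixed overlapped. In miR200b_mimic, whose seed word 1 of 6 NRP2 transcripts holds, the log2 fold change was -0.14 with a 95% interval from -0.43 to 0.15. Exons of AC007362.1 cover 147 bases of NRP2 on the other strand.

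**Figure D2:**
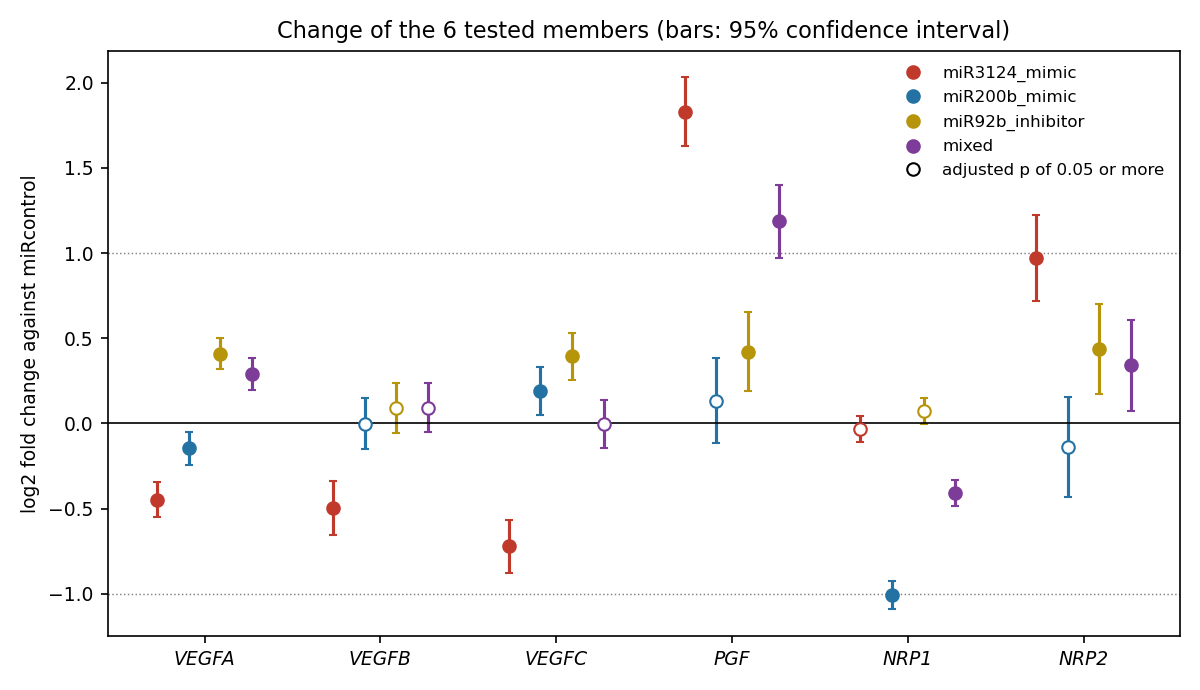
Log2 fold change against miRcontrol (y axis) of the 6 tested members in the other 4 groups. Bars are 95% confidence intervals, open points have an adjusted p of 0.05 or more, and dotted lines mark a fold of 2. PGF in miR3124_mimic is the highest point at 1.83 and NRP1 in miR200b_mimic the lowest at -1.01.

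Counted over the 6 tested members, 5 were called in miR3124_mimic, with PGF and NRP2 higher and VEGFA, VEGFB and VEGFC lower, where 51.0% of all tested genes were called (25.7% higher and 25.3% lower). In miR200b_mimic 3 were called (VEGFC higher, VEGFA and NRP1 lower) against 40.6% of all genes (21.4% and 19.1%). In miR92b_inhibitor 4 were called, all higher (VEGFA, VEGFC, PGF and NRP2), against 35.7% of all genes (17.5% higher and 18.2% lower). In mixed 4 were called (VEGFA, PGF and NRP2 higher, NRP1 lower) against 42.7% (21.5% and 21.1%). The median log2 fold change of the tested members was -0.24, -0.07, 0.40 and 0.19 in these 4 groups, and that of all tested genes was 0.0039, -0.0055, -0.0061 and 0.0030. When a fold of 2 or more and an unadjusted p under 0.05 were asked for, the members past both were PGF in miR3124_mimic, NRP1 in miR200b_mimic, none in miR92b_inhibitor and PGF in mixed. The same threshold took 8.81%, 5.70%, 2.63% and 5.42% of all genes. These comparisons shared the 2 miRcontrol libraries. The members were chosen with earlier results of these data known, so a share above that of all genes is no separate evidence. In a single test of any difference among the 5 groups all 6 members were called, as were 77.0% of all genes. Between the single transfections, 6 members were called in miR3124_mimic against miR200b_mimic (57.8% of all genes), 6 in miR3124_mimic against miR92b_inhibitor (58.8%) and 5 in miR200b_mimic against miR92b_inhibitor (50.5%). NRP1 differed by only -0.11 between miR3124_mimic and miR92b_inhibitor (adjusted p = 0.0138). That call was lost without miR3124_mimic replicate 1 (-0.10) or miR92b_inhibitor replicate 1 (-0.08).

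The make-up of the ligand mRNAs was taken per kilobase of annotated exon. Shares and ratios between genes depend on the length used. With the longest transcript NRP1 and NRP2 had 46.6 and 1.32 CPM per kb in miRcontrol, against 25.3 and 0.855 with all exons. PGF made up 5.65% and 6.93% of the summed level of the 4 ligands in the miRcontrol libraries and 24.9% and 26.1% in miR3124_mimic. Its share was 12.4% and 11.7% in mixed, and between 6.12% and 7.47% in the miR200b_mimic and miR92b_inhibitor libraries. VEGFA made up 36.4% and 36.5% in miRcontrol and 31.3% and 30.1% in miR3124_mimic. In miR200b_mimic the VEGFA share was 32.4% and 33.1%, and that of VEGFC was 26.6% and 27.0% against 23.6% and 23.5% in miRcontrol. In miR92b_inhibitor the VEGFB share was 30.6% and 27.6% against 34.4% and 33.0% in miRcontrol. The ratio of VEGFA to PGF per kb was 6.43 and 5.27 in miRcontrol and 1.26 and 1.15 in miR3124_mimic. NRP1 exceeded NRP2 per kb 28.3- and 31.1-fold in miRcontrol, 16.3- and 13.6-fold in miR3124_mimic and 17.8- and 15.1-fold in miR200b_mimic. The ratio was 16.0 and 19.7 in mixed and 23.4 and 22.7 in miR92b_inhibitor, so all 8 libraries of the other groups were below both miRcontrol libraries.

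**Figure D3:**
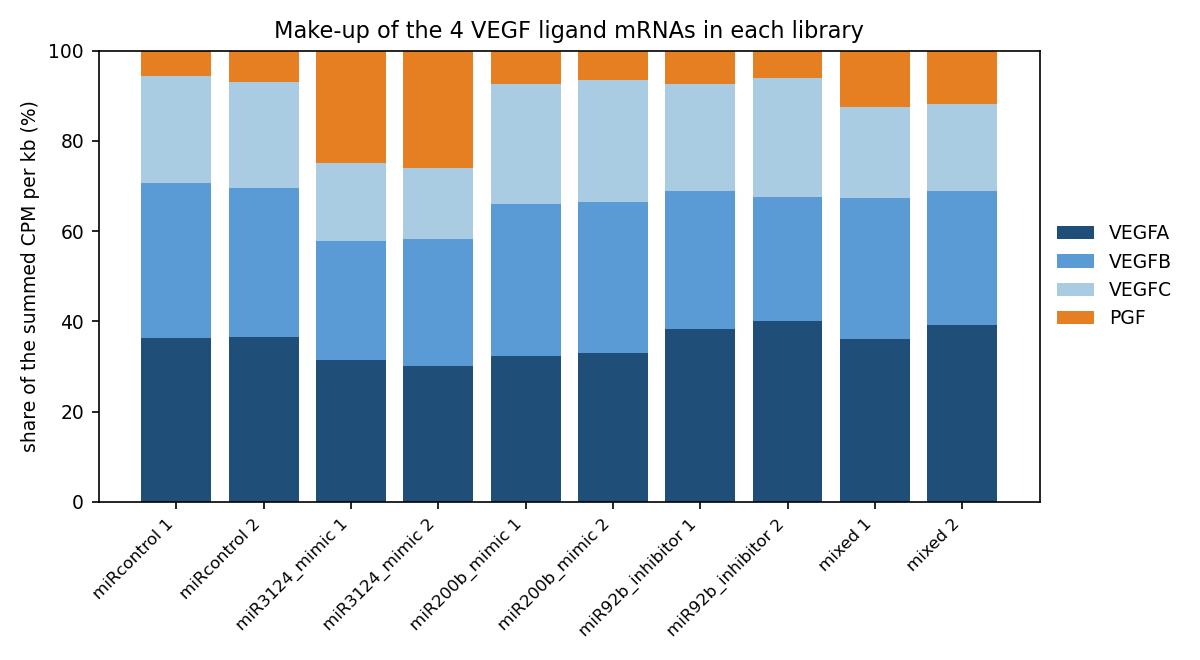
Share of VEGFA, VEGFB, VEGFC and PGF in the summed CPM per kb of the 4 ligands (y axis, percent) in each of the 10 libraries. The PGF share is 24.9% and 26.1% in miR3124_mimic and at most 12.4% in every other library.

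The mixed group was also set against the sum of the 3 single log2 fold changes, with 1 contrast over all 5 groups. PGF was at 1.19 in mixed, where the single changes summed to 2.38, a difference of -1.20 (SE 0.225, adjusted p = 5.58e-05). For NRP2 the difference was -0.93 (adjusted p = 0.00816), for VEGFA 0.47 (adjusted p = 0.000173), for VEGFB 0.50 (adjusted p = 0.0107) and for NRP1 0.56 (SE 0.0765, adjusted p = 1.55e-07). For VEGFC it was 0.13 with a 95% interval from -0.16 to 0.42. These 5 of 6 members were called, where 21.7% of all genes were. In PGF, NRP1, NRP2, VEGFB and VEGFC the mixed value was nearer to 0 than the sum. VEGFA was above miRcontrol in mixed while the sum was -0.18. The VEGFB call was lost without miRcontrol replicate 1 (0.34) and that of NRP2 without miRcontrol replicate 2 (-0.81), and DESeq2 ended both at about the same size (VEGFB 0.50, adjusted p = 0.0575, and NRP2 -0.92, adjusted p = 0.0538). Because the dose of each oligonucleotide in the mixture was not given, a smaller dose and a joint effect cannot be told apart here. Against miR3124_mimic alone, all 6 members were called in mixed (49.1% of all genes), with PGF, NRP1 and NRP2 lower and VEGFA, VEGFB and VEGFC higher. Against miR200b_mimic 5 were called (38.6%), with NRP1 1.52-fold higher and PGF 2.07-fold higher. Against miR92b_inhibitor 4 were called (39.6%), with NRP1 at 0.716 of its level and PGF 1.70-fold higher.

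**Figure D4:**
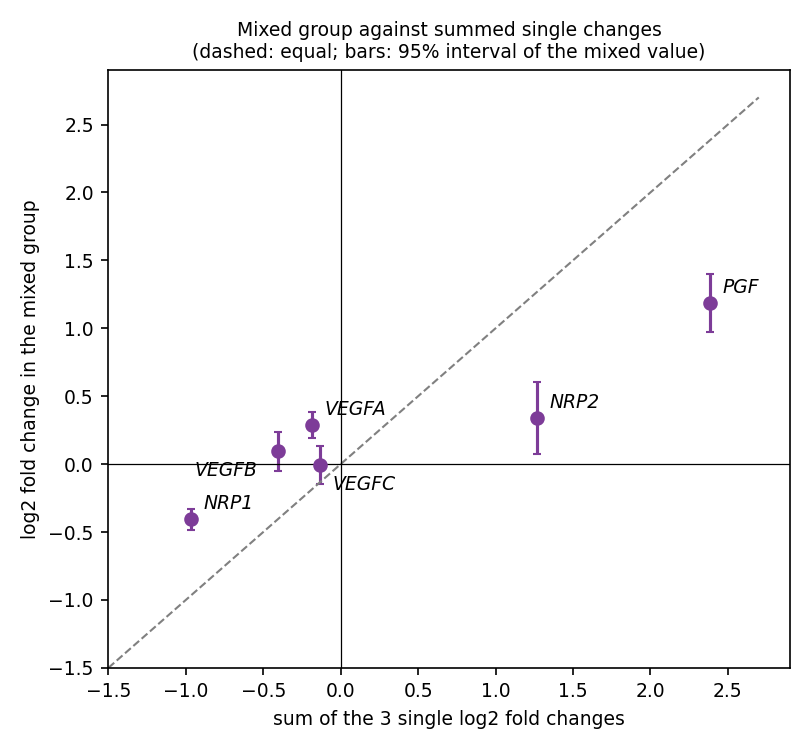
Log2 fold change of the 6 tested members in mixed (y axis, bars are 95% confidence intervals) against the sum of their log2 fold changes in the 3 single transfections (x axis). The dashed line marks equality. PGF at 2.38 and NRP2 at 1.27 on the x axis lie below the line, and NRP1, VEGFB and VEGFA above it.

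As a description over the 10 libraries, which share their groups and controls, the genes with the most similar pattern were named from 10419 genes of at least 5 CPM. VEGFA was most like CCDC59 (Pearson's r = 0.993), UTP20 and EEF1D, and VEGFB most like RPUSD1 (0.976), EMC2 and FAF1. VEGFC was most like RIOX2 (0.990), RYK and the chaperonin subunit CCT4. PGF was most like PEG10 (0.988), the proteasome subunit PSMD7 and SFMBT1. NRP1 was most like STT3A (0.997), a subunit of the oligosaccharyltransferase, the guidance ligand SLIT2 and DRAM1. NRP2 was most like the transporter SLC22A4 (0.976), KIF5A and SH3PXD2A. SLIT2, for example, had 74.0 CPM in miRcontrol, 22.5 in miR200b_mimic and 45.8 in mixed. By Spearman's correlation 1 of the 3 genes was shared for VEGFA, VEGFB and PGF, 2 for VEGFC and 0 for NRP1 and NRP2.

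The genes around the members were counted in lists by role. Over all 145 pathway genes, of which 124 were tested, 89 were called after miR3124_mimic (45 higher, 44 lower), 80 after miR200b_mimic (38 and 42), 68 after miR92b_inhibitor (31 and 37) and 81 after mixed (43 and 38). That is 71.8%, 64.5%, 54.8% and 65.3% of those tested, where 51.0%, 40.6%, 35.7% and 42.7% of all tested genes were called. The counts of each list below are to be read beside these shares. The lists were chosen with earlier results of these data known, so a share above that of all genes is no separate evidence. The pathway genes' median log2 fold change was -0.015 in miR3124_mimic, -0.026 in miR200b_mimic (-0.015 when a fold that rests on 3 or fewer counts is replaced by its bound), -0.024 in miR92b_inhibitor and 0.020 in mixed.

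**Figure D5:**
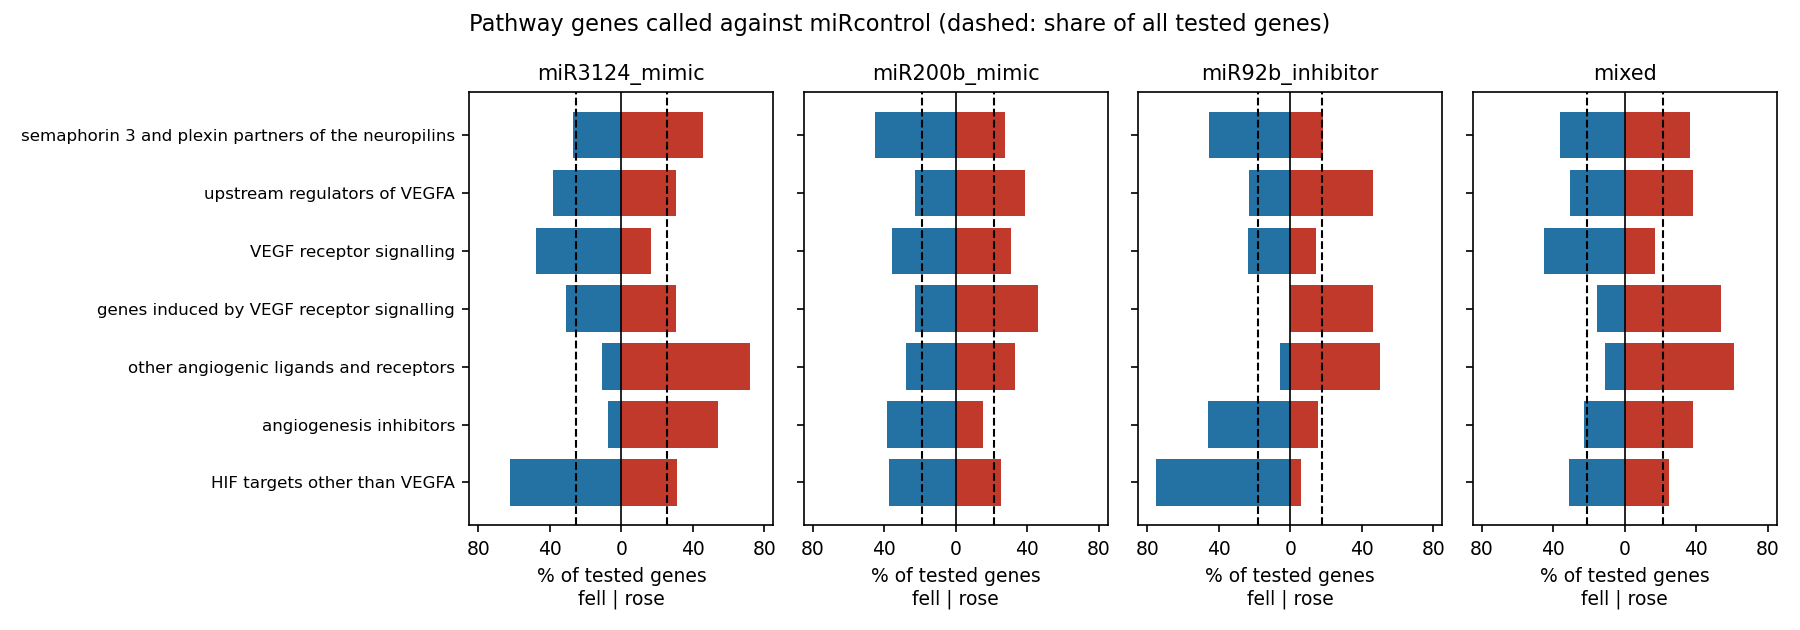
Share of the tested genes of 7 lists that rose (right, red) or fell (left, blue) against miRcontrol in each of the other groups, in percent. Dashed lines mark the share of all tested genes in each direction, and HIF targets in miR92b_inhibitor show the longest bar to the left, at 12 of 16 genes.

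Among the semaphorin and plexin partners of the neuropilins, 11 of 13 were tested. In miR3124_mimic 5 rose and 3 fell, with SEMA3D at -1.44 and SEMA3A at -0.74, and with SEMA3F, the ligand of NRP2, at 0.43. In miR200b_mimic, where NRP1 fell, 3 rose and 5 fell, among them SEMA3C (-0.43) and SEMA3D (-0.46), while GIPC1, which binds the neuropilin tail, rose (0.36). Without miRcontrol replicate 2 the numbers were 2 and 3. In miR92b_inhibitor 2 rose and 5 fell, with the plexin PLXNA3 at -0.73, and without miR92b_inhibitor replicate 2 none rose and 4 fell, without replicate 1 of either miRcontrol or miR92b_inhibitor 1 rose. In mixed 4 rose and 4 fell, led by SEMA3D at -1.43, and 2 rose without miRcontrol replicate 1 or without mixed replicate 2.

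Of 15 upstream regulators of VEGFA, 13 were tested. STAT3, a transcription factor that activates VEGFA, rose by 0.64 in miR3124_mimic, 0.73 in miR200b_mimic and 0.48 in mixed on the log2 scale. The factor ETS1 rose by 0.46 in miR3124_mimic, 0.48 in miR92b_inhibitor and 0.51 in mixed. EPAS1, which encodes HIF-2α, rose by 0.45 in miR3124_mimic and 0.24 in miR92b_inhibitor, and HIF1A fell by 0.32 in miR200b_mimic. VHL fell by 0.35 in miR200b_mimic and 0.30 in mixed, and EGLN1 and ARNT fell by 0.29 and 0.20 in miR92b_inhibitor. ZFP36L1 and ZFP36, which destabilize AU-rich mRNAs, rose by 0.82 and 0.76 in miR200b_mimic. ZFP36L1 rose by 0.40 in miR92b_inhibitor and 0.51 in mixed, and ZFP36 fell by 0.31 in miR3124_mimic. ELAVL1, which stabilizes such mRNAs, fell by 0.44 in miR3124_mimic and 0.19 in mixed. The transcription factor SP1 fell in all 4 groups, by 0.14, 0.29, 0.21 and 0.23 in the order miR3124_mimic, miR200b_mimic, miR92b_inhibitor and mixed. In all, 4 rose and 5 fell after miR3124_mimic, 5 rose and 3 fell after miR200b_mimic, 6 rose and 3 fell after miR92b_inhibitor, and 5 rose and 4 fell after mixed. In miR3124_mimic 3 in place of 5 fell without miRcontrol replicate 1 or miR3124_mimic replicate 2.

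Of 17 HIF targets other than VEGFA, 16 were tested. In miR92b_inhibitor, where VEGFA rose, 12 of them fell and 1 rose, with a median of -0.41. CA9, carbonic anhydrase 9, went from 8.47 to 1.94 CPM (log2 -2.11), PFKFB4 was at -0.88 and NDRG1 at -0.83, while ADM, adrenomedullin, rose by 0.36. In miR3124_mimic, where VEGFA fell, 10 fell and 5 rose (median -0.28), with LDHA, lactate dehydrogenase A, at -1.73 and NDRG1 at 0.79, and without miR3124_mimic replicate 2 it was 8 and 3. In miR200b_mimic 4 rose and 6 fell, and in mixed 4 rose and 5 fell, with NDRG1 up by 0.84 and LDHA at -0.52.

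Of 46 genes of VEGF receptor signalling, 42 were tested, in cells where KDR and FLT1 were near 0 counts. In miR3124_mimic 7 rose and 20 fell (median -0.14), including AKT2 (-1.36), the small heat shock protein HSPB1 (-1.00) and the apoptosis regulator BAD (-0.94), and SHC2, an adaptor, rose from 0.408 to 4.32 CPM. At its low miRcontrol level SHC2 may have passed the filter only through groups where it was higher. Its rise may therefore be no separate evidence. In miR200b_mimic 13 rose and 15 fell, with CDC42 at -0.99 and PLCG1, the phospholipase that KDR activates, at -0.93, and 7 rose without miRcontrol replicate 1. In miR92b_inhibitor 6 rose and 10 fell, with AKT1 at -0.43, and without replicate 1 of miRcontrol 3 rose and 5 fell, without replicate 1 of miR92b_inhibitor 5 and 6. There 38.1% of the tested genes were called (14.3% higher and 23.8% lower), near the 35.7% of all genes (17.5% and 18.2%). In mixed 7 rose and 19 fell, led by PLCG1 (-0.84) and AKT2 (-0.76).

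Of 15 genes known to be induced by VEGF receptors, most of which other growth factors induce too, 13 were tested. In miR92b_inhibitor 6 rose and none fell (median 0.29), with EGR1, an immediate early transcription factor, going from 8.69 to 41.0 CPM. In mixed 7 rose and 2 fell (median 0.39), with EGR1 at 46.9 CPM, the phosphatase gene DUSP5 at a log2 fold change of 1.43 and PLAU, urokinase, at 1.30, and 1 fell without miRcontrol replicate 2 or without mixed replicate 1. In miR200b_mimic 6 rose and 3 fell (median 0.49), with DUSP5 at 1.51 and the protease ADAMTS1 at -1.79. In miR3124_mimic 4 rose and 4 fell, with PLAU at 1.40 and F3, tissue factor, at -0.97.

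Of 24 other angiogenic ligands and receptors, 18 were tested. In miR3124_mimic 13 rose and 2 fell (median 0.38), with ANGPTL4 at 2.84, the pericyte receptor PDGFRB at 1.95 and the endothelial receptor TIE1 at 1.90, and without miR3124_mimic replicate 2 it was 12 and 1. In miR92b_inhibitor 9 rose and 1 fell (median 0.24), with CXCL8, a chemokine that attracts neutrophils and promotes vessel growth, going from 23.1 to 102 CPM. APLN, the gene that fell there, was not called without miRcontrol replicate 1, miRcontrol replicate 2 or miR92b_inhibitor replicate 2, and in the last case 6 rose. In mixed 11 rose and 2 fell (median 0.53), with PDGFB at 1.91 and FGF1 at 1.41, and 1 fell without miRcontrol replicate 1, miRcontrol replicate 2 or mixed replicate 2. In miR200b_mimic 6 rose and 5 fell (median -0.01), with PDGFB at 1.85 and CXCL8 at -1.35.

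Of 16 genes listed as angiogenesis inhibitors, 13 were tested. VASH2, which the list holds, is known to promote vessel growth rather than to inhibit it, and it is among the genes counted as lower in miR200b_mimic (-2.22), miR92b_inhibitor (-0.91) and mixed (-1.44). In miR3124_mimic 7 rose and 1 fell (median 0.23), with COL18A1, the source of endostatin, at 1.38 and the thrombospondin THBS2 at 0.75. In miR200b_mimic 2 rose and 5 fell, with THBS2 at -1.22. In miR92b_inhibitor 2 rose and 6 fell, with COL18A1 at -0.49 and THBS1 at 0.26, and without miRcontrol replicate 2 it was 3 and 2, without miR92b_inhibitor replicate 2 it was 3 and 3. In mixed 5 rose and 3 fell, with SPRY2 at 0.64 and VASH1 at -0.64, and without mixed replicate 2 it was 3 and 2.

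The label of bronchial epithelium was set against marker genes. Of 10 epithelial markers 7 were tested, and KRT8 was the most abundant, at 814 CPM in both miRcontrol libraries, but CDH1 had 3 and 2 counts and EPCAM 8 and 2 counts there, and KRT5, KRT14 and TP63 did not pass the filter. VIM, a mesenchymal marker, was at 3894 and 3707 CPM in miRcontrol. In miR200b_mimic, where NRP1 fell, 6 epithelial markers rose and none fell, and their summed level went from 1448 and 1467 CPM to 2684 and 2722. CDH1 had 146 and 157 counts there, a ratio of 67.4 with a counting interval from 28.6 to 209. It had 10 counts in all in miR3124_mimic and 2 in miR92b_inhibitor, so only miR200b_mimic and mixed carried it past the filter. Its rise in those groups was therefore no separate evidence. The same may hold for EPCAM, at 0.289 CPM in miRcontrol, 10.2 in miR200b_mimic and 5.48 in mixed. In mixed 5 epithelial markers rose and 1 fell, with CDH1 at 46 and 36 counts and a summed level of 2654 and 2648 CPM. In miR3124_mimic 3 rose and 1 fell, with a sum of 1955 and 1969.8 CPM, and KRT19 went from 8.20 to 0.760 CPM. In miR92b_inhibitor none rose and 1 fell (2 without miRcontrol replicate 1), with a sum of 1463 and 1405 CPM. Their part in the changes of the members was not tested.

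Of 13 endothelial markers 5 were tested, with EGFL7 the most abundant in miRcontrol and miR3124_mimic and ROBO4 higher than it in each library of the other 3 groups, such as 12.4 and 13.1 CPM against 9.29 and 7.91 in mixed, and the defining PECAM1 and VWF had at most 4 and 10 counts in any library. In miR3124_mimic, where PGF and NRP2 rose, 4 rose and none fell, and the summed level was 43.2 and 40.7 CPM against 18.2 and 21.1 in miRcontrol. CDH5, VE-cadherin, singled out after its values were seen and among these 4, had 1 and 1 counts in miRcontrol and 59 and 44 in miR3124_mimic. With 0 counts in miR200b_mimic, 4 in miR92b_inhibitor and 15 in mixed, it passed the filter only through miR3124_mimic. Its rise there was therefore no separate evidence. In mixed 3 rose (1 without miRcontrol replicate 1 or mixed replicate 2), with sums of 28.8 and 28.9 CPM, and in miR200b_mimic and miR92b_inhibitor 1 rose and 1 fell, with sums of 22.3 and 26.4 and of 16.8 and 19.4 CPM. The 1 that rose in miR92b_inhibitor did not without its replicate 2. Of 9 fibroblast and mural cell markers, 5 were tested. In miR3124_mimic 2 rose and 1 fell, VIM from 3800.4 to 813 CPM, and 1 rose and 2 fell in miR200b_mimic, 2 rose and 1 fell in miR92b_inhibitor, and 3 rose and 1 fell in mixed. The summed level of this list, nearly all of it VIM, was 3919 and 3730.5 CPM in miRcontrol and 886 and 858 CPM after miR3124_mimic. Without VIM the sum was higher after miR3124_mimic, at 58.5 and 59.0 CPM against 25.3 and 23.5 in miRcontrol, and it was 43.1 and 43.4 CPM after miR200b_mimic, 22.5 and 23.8 after miR92b_inhibitor and 39.4 and 40.1 after mixed. The miR200b_mimic libraries summed to 3015 and 3035 CPM, those of miR92b_inhibitor to 4269 and 4255 CPM and those of mixed to 2723 and 2815 CPM. Of 6 leukocyte markers 2 were tested, CD68 and CD14. PTPRC, which defines leukocytes, had at most 2 counts in any library. CD14 rose from 1.12 to 12.5 CPM in miR3124_mimic, and the summed level of the list was 27.5 and 28.6 CPM in miRcontrol and 36.1 and 36.3 in miR3124_mimic. It was 18.1 and 20.3 CPM after miR200b_mimic, 40.1 and 42.2 CPM after miR92b_inhibitor and 24.7 and 25.9 CPM after mixed. In miR200b_mimic both fell (1 without miRcontrol replicate 2 or miR200b_mimic replicate 1), and in miR92b_inhibitor CD68 rose by 0.58 and CD14 was not called. In mixed CD14 rose by 0.76 and CD68 was at -0.20, and the former call was lost without miRcontrol replicate 1 and without either mixed replicate, and the latter without any 1 of the 4 libraries. The part of these markers in the results was not tested.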

How the data were processed

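The raw counts per gene were deposited by the authors, 1 table per library of 58173 rows. Reads were trimmed with FASTX and BBMap per the study's methods and aligned with TopHat to GRCh38 per the submitters' notes, and the counting tool, annotation and strand setting are not given in the sources used here. Counts of 5771 rows that repeat a symbol were summed, which left 52402 symbols. Genes with low counts were removed by filterByExpr, and edgeR 4.0.16 in R 4.3.3 was fitted to all 10 libraries of 5 groups with relative log expression scaling (factors 0.985 to 1.016), quasi-likelihood tests and Benjamini-Hochberg adjustment over 14884 genes. Normalized CPM was taken against the scaled library size of the tested genes. From each list up to 3 risen and 3 fallen genes with the largest fold, a mean of at least 1 CPM and groups that did not overlap were named. Alternatives were other scalings, filters, DESeq2 1.42.0, the exact test, a replicate block, other lengths and each library left out. The members and lists were chosen with earlier results of these data known. Replicates differed beyond sampling noise (chi-square per degree of freedom 1.77 to 2.76), so none was merged. Replicate numbers did not pair the libraries.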

Additional observations from a re-analysis of the deposited data

How the results depend on the processing

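Of 516 fold changes of the tested members under settings other than a left-out library, 497 kept their direction and their side of the threshold, 13 lost their call and 6 changed sign. With a library left out, 267 of 300 kept both, 26 lost the call and 7 changed sign. DESeq2 called 1 member in miR200b_mimic (3 by edgeR), 3 between miR200b_mimic and miR92b_inhibitor (5 by edgeR) and 3 in the departure of mixed from the summed single effects (5 by edgeR). Over all genes in miR200b_mimic against miRcontrol, DESeq2 called 2509 higher and 2132 lower, where edgeR called 3189 and 2848. With no filter, 2 members in place of 1 passed a fold of 2 in miR3124_mimic, the added one being FLT1, whose 7 counts were in 1 library. Over the left-out libraries the members called ranged from 1 to 3 in miR200b_mimic (1 without miR200b_mimic replicate 2), from 3 to 5 between mixed and miR200b_mimic (3 without miR200b_mimic replicate 1) and from 3 to 5 between miR200b_mimic and miR92b_inhibitor (3 without miR200b_mimic replicate 2). Those past a fold of 2 ranged from 1 to 2 in miR3124_mimic (2 without miRcontrol replicate 1 or miR3124_mimic replicate 1, where NRP2 was at 1.04 and 1.09) and from 0 to 1 in miR200b_mimic (0 without miRcontrol replicate 2 or miR200b_mimic replicate 2, where NRP1 stayed at a log2 fold change of -1.00 to 2 decimals). No fold change that changed sign was called in either setting. VEGFB in miR200b_mimic was at 0.0056 with TMM, 0.0014 with no filter and 0.0025 with the replicate block, and between -0.0757 and 0.0797 with a library left out. VEGFB in mixed against miR92b_inhibitor was at -8.74e-05 with no filter and between -0.0659 and 0.0684 with a library left out. VEGFC in mixed was at 0.0071 with TMM, 0.0108 with library totals only, and between -0.0518 and 0.0443 with a library left out. NRP2 in mixed against miR92b_inhibitor was between -0.265 and 0.0565 with a library left out. The cause was not tested. With the replicate block, 5, 3, 4 and 4 members were called in miR3124_mimic, miR200b_mimic, miR92b_inhibitor and mixed, as without it, and the correlation of same-numbered libraries' deviations ran from -0.0619 to 0.0614. The calls of NRP2 in miR92b_inhibitor and mixed had adjusted p of 0.0504 and 0.133 by DESeq2. FLT1, KDR and VEGFD had at most 7, 3 and 1 counts in a library, and no difference in them passed the adjusted threshold in miR3124_mimic with no filter.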
